A study of Mus musculus with 3 samples.

Results

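Hnrnpa0 and Rab21 are the 2 genes described here, out of 32285 in the deposited matrices. They were chosen by the measured values themselves: their levels differed between the libraries of a mouse lung cancer study across marker-gated cell types. Every value below on those differences is therefore a description, and none is a test. After treatment, single cells of mouse non-small cell lung cancer, immune cells above all, were profiled with 10x Genomics 3′ chemistry, which counts unique molecular identifiers (UMIs) near the 3′ end of polyadenylated RNA. The groups were labelled AI-Exo, PD-L1 and PBS, with 1 library each; the title speaks of exosomes that inhibit autophagy, and the labels do not spell out the group names. The sources used here do not give strain, age, dose, time, sort or the number of animals per library. With 1 library per group, what belongs to a treatment and what belongs to a library cannot be told apart, and the intervals below are 95% intervals that cover counting error only.

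Hnrnpa0 encodes a heterogeneous nuclear ribonucleoprotein (hnRNP) of the A/B family, RNA-binding proteins that accompany transcripts through splicing, export and decay. In mouse macrophages the protein is known as a substrate of the kinase MK2, downstream of p38, and binds AU-rich elements of inflammatory mRNAs. Rab21 encodes a small GTPase of early endosomes, known for moving integrins from the cell surface inward and back, and, from human cells and flies, for a role with VAMP8 in the fusion of autophagosomes with lysosomes. Neither gene is a marker of a cell type.

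The genes differ in structure. In the GENCODE mouse annotation the coding transcript of Hnrnpa0 has 1 exon, 2678 bases and a 3′ untranslated region of 1520 bases. The longest coding transcript of Rab21 has 7 exons, 4602 bases and a 3′ untranslated region of 3691 bases. Of 6483 genes tested here that had a coding transcript, 111 (1.71%) had 1 exon. No annotated gene overlapped either member. The nearest to Rab21, Gm10752 on the other strand, lay 52 bases away and is absent from the deposited matrices. The 250 bases before each start, from RefSeq on GRCm38.p6 and written 5′ to 3′ in the direction of the gene, are shown because the 2 genes were low together in the AI-Exo library; capitals mark the GC box GGGCGG in both, which in Rab21 lies on the other strand, and the CCAAT box in Hnrnpa0, also on the other strand. They mark the palindrome TCACGTGA in Rab21.
Hnrnpa0, chr13:58128557-58128806, minus strand: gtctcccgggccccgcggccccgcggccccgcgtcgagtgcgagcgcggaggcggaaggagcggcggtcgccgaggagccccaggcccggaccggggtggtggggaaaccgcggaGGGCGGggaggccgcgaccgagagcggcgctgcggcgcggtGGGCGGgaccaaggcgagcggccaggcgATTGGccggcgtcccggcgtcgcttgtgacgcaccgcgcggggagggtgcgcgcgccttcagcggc
Rab21, chr10:115315592-115315841, minus strand: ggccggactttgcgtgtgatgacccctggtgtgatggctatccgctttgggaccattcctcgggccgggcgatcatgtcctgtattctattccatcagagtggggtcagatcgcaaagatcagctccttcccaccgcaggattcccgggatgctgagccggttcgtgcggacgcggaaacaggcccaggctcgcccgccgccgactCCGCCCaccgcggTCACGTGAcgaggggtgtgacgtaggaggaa

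The Hnrnpa0 window had a GC content of 81.2% and the Rab21 window one of 63.2%, against a median of 52.4% over 32851 RefSeq windows of that length. A set of 6 short motifs was searched on both strands. Shares are given over all windows and over the 6862 windows of genes tested here. The GC box stood 2 times before Hnrnpa0 and 1 time before Rab21, and in 32.7% of all windows and 58.6% of those of tested genes. The palindrome TCACGTGA, an E-box of the kind bound by TFEB and its relatives, stood before Rab21 and not before Hnrnpa0, and in 0.785% of all windows and 1.76% of those of tested genes. The core TGACG of cyclic AMP response elements stood 1 time before Hnrnpa0 and 2 times before Rab21, once overlapping the end of the palindrome, and in 17.8% of all windows and 28.6% of those of tested genes. CCAAT was found before Hnrnpa0 only (33.8% of all windows and 34.0% of those of tested genes), as was the ETS core CGGAAG (13.6% and 26.1%), and the YY1 core GCCAT before Rab21 only (32.9% and 28.7%). Such matches describe letters in these windows and say nothing of binding.

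The filter of at least 500 UMIs, at least 200 genes and at most 20% mitochondrial UMIs left 10457 AI-Exo, 9697 PD-L1 and 9359 PBS cells, with medians of 4425 (AI-Exo), 3948 (PD-L1) and 4380 (PBS) UMIs. Between 23 and 33 barcodes were shared by each pair of libraries. A cell was placed in a class by its number of detected marker genes, and each class is named after its marker list (B cell-like and so on; the suffix is left out below). The gate placed 87.6% of AI-Exo, 87.0% of PD-L1 and 85.5% of PBS cells, and 11 cell types had at least 50 cells in every library. Developing T cells (Rag1, Rag2, Dntt, Arpp21, Ptcra) numbered 0 in AI-Exo, 684 in PD-L1 and 683 in PBS, so the makeup of all cells differed between libraries, and levels are also given per cell type.

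Over all cells, Hnrnpa0 (ENSMUSG00000007836) was lowest in AI-Exo and highest in PD-L1. In UMIs of the gene per 1000000 UMIs (CPM, the unit of every level below), its level was 89.9 [87.7 to 92.1] in AI-Exo, 315 [310.1 to 319] in PD-L1 and 185 [182 to 188] in PBS, from 6484 UMIs in AI-Exo, 19441 in PD-L1 and 11958 in PBS. The 3 intervals lay far apart. AI-Exo held 0.486 times the PBS level [0.471 to 0.5004] and 0.286 times the PD-L1 level [0.278 to 0.294], and PD-L1 held 1.70 times the PBS level [1.66 to 1.74]. A UMI of Hnrnpa0 was found in 36.3% of AI-Exo, 58.5% of PD-L1 and 53.1% of PBS cells. With every cell thinned to 1000 UMIs, which left out between 225 and 318 shallower cells a library, the shares were 8.10% in AI-Exo, 21.7% in PD-L1 and 15.6% in PBS.

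With all cells of a type summed, the order from low to high was AI-Exo, PBS, PD-L1 in each of the 11 cell types. The only single types split by depth of cell were B cells, neutrophils and alveolar macrophages. In B cells PD-L1 stood above PBS at each depth, with overlapping intervals from 500 to 2000 UMIs. In neutrophils and alveolar macrophages PD-L1 did not stand above PBS at every depth. B cells had 84.8 Hnrnpa0 CPM in AI-Exo, 318 in PD-L1 and 198 in PBS. CD4 T cells had 97.0 in AI-Exo, 376 in PD-L1 and 197 in PBS. CD8 T cells had 93.2 in AI-Exo, 326 in PD-L1 and 206 in PBS. The B and T cell levels were thus lowest in AI-Exo by a wide margin. Other T cells had 100.2 in AI-Exo, 369 in PD-L1 and 235 in PBS. NK cells had 78.6 in AI-Exo, 290.2 in PD-L1 and 176 in PBS. Among lymphocytes no interval of 1 library met that of another. Neutrophils had 60.0 CPM in AI-Exo, 154 in PD-L1 and 113 in PBS. The PD-L1 value rested on few cells. Of its 1436 UMIs, 1 cell alone held 115, and 118 neutrophils of 10000 UMIs or more gave 806. Those deep cells had 72.7 CPM in AI-Exo, 330 in PD-L1 and 157 in PBS. In shallower neutrophils PD-L1 was not clear of PBS: from 2000 to 5000 UMIs the levels were 45.1 in AI-Exo, 74.8 [66.4 to 83.9] in PD-L1 and 84.5 [73.4 to 96.8] in PBS. From 5000 to 10000 UMIs they were 50.5 in AI-Exo, 123 [109.2 to 138] in PD-L1 and 126 [108 to 146] in PBS, and from 500 to 2000 UMIs 51.0 in AI-Exo, 78.7 in PD-L1 and 75.1 in PBS. AI-Exo was lowest in each of these neutrophil bins. Monocytes had 64.1 in AI-Exo, 181 in PD-L1 and 118 in PBS, and macrophages 81.6 in AI-Exo, 239 in PD-L1 and 172 in PBS. The myeloid levels kept the order of the lymphocytes at lower values in PD-L1. In cDC1, the cross-presenting dendritic cells, the level was 81.5 in AI-Exo, 257 in PD-L1 and 157 in PBS. Mature dendritic cells had 62.4 [44.8 to 84.6] in AI-Exo, 162 [135 to 194] in PD-L1 and 116 [90.4 to 146] in PBS, and there the PD-L1 and PBS intervals overlapped. Alveolar macrophages differed least, with 138 [131 to 146] in AI-Exo, 213 [202 to 224] in PD-L1 and 181 [169.8 to 193] in PBS. Few alveolar macrophages had 2000 to 5000 UMIs, 44 to 63 a library. Their levels were 109 [63.7 to 175] in AI-Exo, 119 [71.7 to 186] in PD-L1 and 174 [124 to 238] in PBS. Those intervals overlapped. From 5000 to 10000 UMIs, with 124 to 139 cells a library, the intervals overlapped as well. Levels there were 163 [138 to 190] in AI-Exo, 180 [154 to 209] in PD-L1 and 174 [150 to 200] in PBS. From 10000 UMIs the intervals lay apart. These deep cells had 137 [129 to 144] in AI-Exo, 221 [209 to 234] in PD-L1 and 184 [171 to 198] in PBS.

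**Figure D1:**
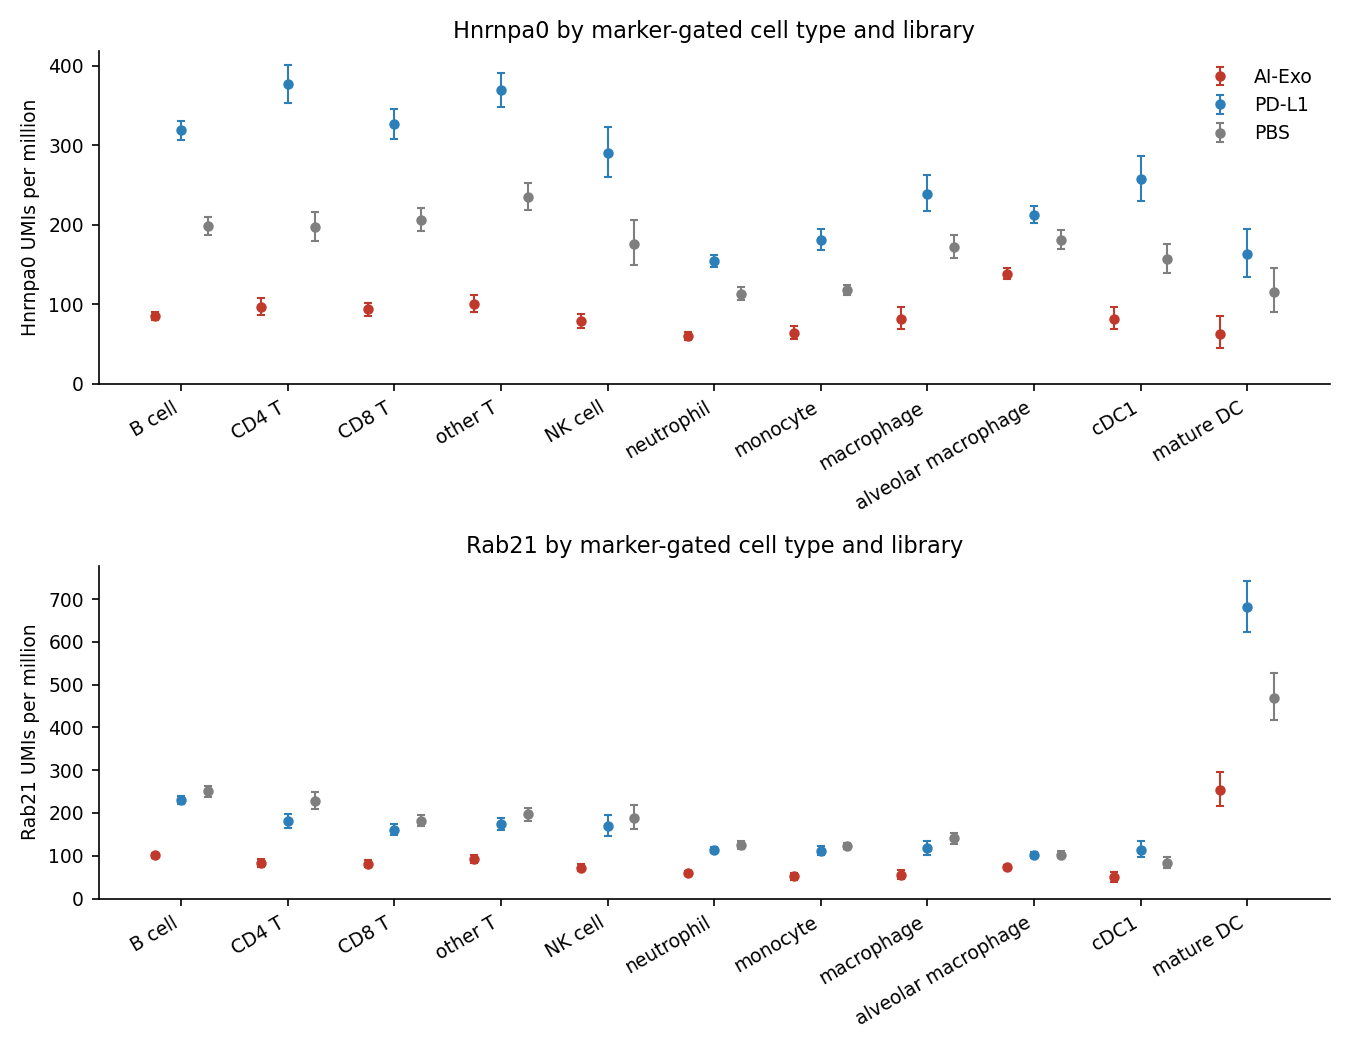
Levels of Hnrnpa0 (upper panel) and Rab21 (lower panel) in CPM, for 11 marker-gated cell types (horizontal axis) in the AI-Exo, PD-L1 and PBS libraries. Points are levels of summed UMIs and bars 95% Poisson intervals; AI-Exo lies lowest in each cell type, and the highest Rab21 levels are in mature dendritic cells, at 254 in AI-Exo, 681 in PD-L1 and 469.5 in PBS.

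The cell types did not rank alike in the 3 libraries. Neutrophils had the lowest Hnrnpa0 level in each library, and intervals of neutrophils and mature dendritic cells, the next in order, overlapped. In AI-Exo alveolar macrophages stood highest at 138 CPM, clear of the next type, other T cells. In PD-L1 CD4 T cells (376) and other T cells (369) stood highest with overlapping intervals, and alveolar macrophages stood at place 8 of 11. In PBS other T cells stood highest at 235, overlapping CD8 T cells at 206. The highest type held 2.31 times the level of the lowest in AI-Exo, 2.44 times in PD-L1 and 2.08 times in PBS.

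Beyond the 11 types, developing T cells carried the highest Hnrnpa0 level of any class with over 50 cells in 2 libraries, 639 CPM [622 to 656] in PD-L1 and 333 [320.0 to 347] in PBS. They gave 5670 of the 19441 PD-L1 UMIs and 2330 of the 11958 PBS UMIs. Of 10 small classes with cells in all 3 libraries, AI-Exo was lowest in 9 (mast cells or basophils were the exception, with at most 11 cells a library) and PD-L1 highest in 10. These counts go by point order alone. The interval of PD-L1 over PBS spanned 0 in group 2 innate lymphoid cells and conventional type 2 dendritic cells. It also spanned 0 in plasmacytoid dendritic cells and in mast cells or basophils. Regulatory T cells, 32 to 72 in number, had 112 CPM in AI-Exo, 381 in PD-L1 and 227 in PBS. The few epithelial or tumour cells, 8 to 16 in number, had 84.2 in AI-Exo, 307 in PD-L1 and 209 in PBS.

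Rab21 (ENSMUSG00000020132) was low in AI-Exo alone. Over all cells its level was 78.1 CPM [76.1 to 80.2] in AI-Exo, 155 [152 to 158] in PD-L1 and 157 [153 to 159.6] in PBS, from 5637 UMIs in AI-Exo, 9567 in PD-L1 and 10111 in PBS. The AI-Exo interval was clear of the other 2, which overlapped. AI-Exo held 0.499 times the PBS level [0.483 to 0.516] and 0.505 times the PD-L1 level [0.488 to 0.522], and PD-L1 held 0.989 times the PBS level [0.961 to 1.02]. A Rab21 UMI was found in 34.4% of AI-Exo, 48.8% of PD-L1 and 52.6% of PBS cells, and after thinning in 7.90% of AI-Exo, 15.1% of PD-L1 and 15.4% of PBS cells.

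AI-Exo was the lowest library for Rab21 in each of the 11 cell types. B cells had 101 CPM in AI-Exo, 231 in PD-L1 and 251 in PBS. CD4 T cells had 82.6 in AI-Exo, 181 in PD-L1 and 228 in PBS. CD8 T cells had 81.6 in AI-Exo, 161 in PD-L1 and 182 in PBS. AI-Exo stood clear of the other libraries in each of these. Other T cells had 91.9 in AI-Exo, 174 in PD-L1 and 197 in PBS, and NK cells 72.2 in AI-Exo, 169 in PD-L1 and 189 in PBS. In these lymphocytes PD-L1 lay slightly under PBS, and the AI-Exo intervals lay apart from both. Neutrophils had 59.0 CPM in AI-Exo, 114 in PD-L1 and 125 in PBS. Monocytes had 51.6 in AI-Exo, 112 in PD-L1 and 122 in PBS, and macrophages 55.3 in AI-Exo, 117 in PD-L1 and 141 in PBS. These again put AI-Exo lowest. Alveolar macrophages again differed least, with 73.6 [68.5 to 78.9] in AI-Exo, 102 [94.1 to 109.7] in PD-L1 and 102 [93.6 to 111] in PBS. In cDC1 the level was 49.5 [39.5 to 61.2] in AI-Exo, 114 [96.2 to 134] in PD-L1 and 82.9 [70.3 to 97.1] in PBS.

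Mature dendritic cells, marked by Ccr7, Fscn1 and Ccl22, had the highest Rab21 level of the 11 types in each library. They reached 254 CPM [217 to 296] in AI-Exo, 681 [623 to 743] in PD-L1 and 469.5 [417 to 527] in PBS, with no overlap among the libraries or with the next type, B cells. At medians of 10461 to 11980 UMIs, 83.6% of 61 AI-Exo cells, 97.0% of 66 PD-L1 cells and 88.9% of 54 PBS cells had a Rab21 UMI. The share in neutrophils, the type with the lowest share, was 23.3% in AI-Exo, 29.6% in PD-L1 and 31.5% in PBS, at medians of 3249 UMIs in AI-Exo, 2896 in PD-L1 and 2625 in PBS. The highest type held 5.14 times the level of the lowest in AI-Exo, 6.69 times in PD-L1 and 5.66 times in PBS. Among the small classes with cells in all 3 libraries, AI-Exo was lowest in 8 of 10, with mast cells or basophils and plasmacytoid dendritic cells as the exceptions. This count too goes by point order alone. In endothelial cells the plain log2 ratio of AI-Exo over PBS was -0.05 [-0.79 to 0.73]. In group 2 innate lymphoid cells that of AI-Exo over PD-L1 was -1.01 [-2.09 to 0.02]. Developing T cells had 123 Rab21 CPM in PD-L1 and 156 in PBS.

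Ratios between libraries were also taken per cell type as log2 of the level plus 10 CPM, and a gene was called past 1.5-fold by size alone, among genes of at least 20 CPM in the higher library. The comparisons share libraries, so their counts are not independent of one another. AI-Exo over PBS, Hnrnpa0 was lower past 1.5-fold over all cells and in 10 of 11 types, with log2 ratios between -1.15 in other T cells and -0.37 in alveolar macrophages. Rab21 was lower past 1.5-fold over all cells and likewise in 10 of 11 types, with log2 ratios between -1.36 in CD4 T cells and -0.42 in alveolar macrophages. In that direction 2.34% of genes were called over all cells, and 3.56% of gene and cell type pairs. At any size, 1.99% of genes were lower in each of the 11 types, as both members were, and 0% were lower past 1.5-fold in each.

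AI-Exo over PD-L1, Hnrnpa0 was lower past 1.5-fold over all cells and in 10 of 11 types, with log2 ratios between -1.85 in CD4 T cells and -0.58 in alveolar macrophages. Rab21 was lower past 1.5-fold over all cells and in 10 of 11 types, with log2 ratios between -1.39 in mature dendritic cells and -0.42 in alveolar macrophages. Called lower were 2.46% of genes over all cells and 3.5% of gene and cell type pairs. Lower in each type at any size were 1.67% of genes, both members among them, and past 1.5-fold 0.0298%, which was Hspa1b alone. Hnrnpa0 barely missed that call, in alveolar macrophages, at -0.5846 where 1.5-fold is 0.5850 in size. Without the added 10 CPM its log2 ratio there was -0.62 [-0.73 to -0.51].

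PD-L1 over PBS, Hnrnpa0 was higher past 1.5-fold over all cells and in 6 of 11 types, with log2 ratios between 0.22 in alveolar macrophages and 0.90 in CD4 T cells. The call over all cells was lost when each cell was thinned to 1000 UMIs (log2 ratio 0.52, where 1.5-fold is 0.58). It was not reached in cells of 500 to 2000 UMIs (0.26) or of 2000 to 5000 UMIs (0.50), nor, in a split chosen after the data were seen, in cells with 5% or more mitochondrial UMIs (0.31). Rab21 passed 1.5-fold in no cell type in this comparison, and its log2 ratios ran between -0.32 in CD4 T cells and 0.53 in mature dendritic cells. Called higher were 1.36% of genes over all cells and 3.78% of gene and cell type pairs. Higher in each type at any size were 1.24% of genes, Hnrnpa0 among them, and past 1.5-fold 0.0303%, which was Ifi27l2a, an interferon-induced gene. The direction of the Rab21 ratio differed by cell type: on the plain scale it lay above 0 with its interval in cDC1 (0.46 [0.12 to 0.80]) and mature dendritic cells (0.54 [0.32 to 0.75]), and below 0 with its interval in 5 types, among them CD4 T cells (-0.33 [-0.52 to -0.15]).

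**Figure D2:**
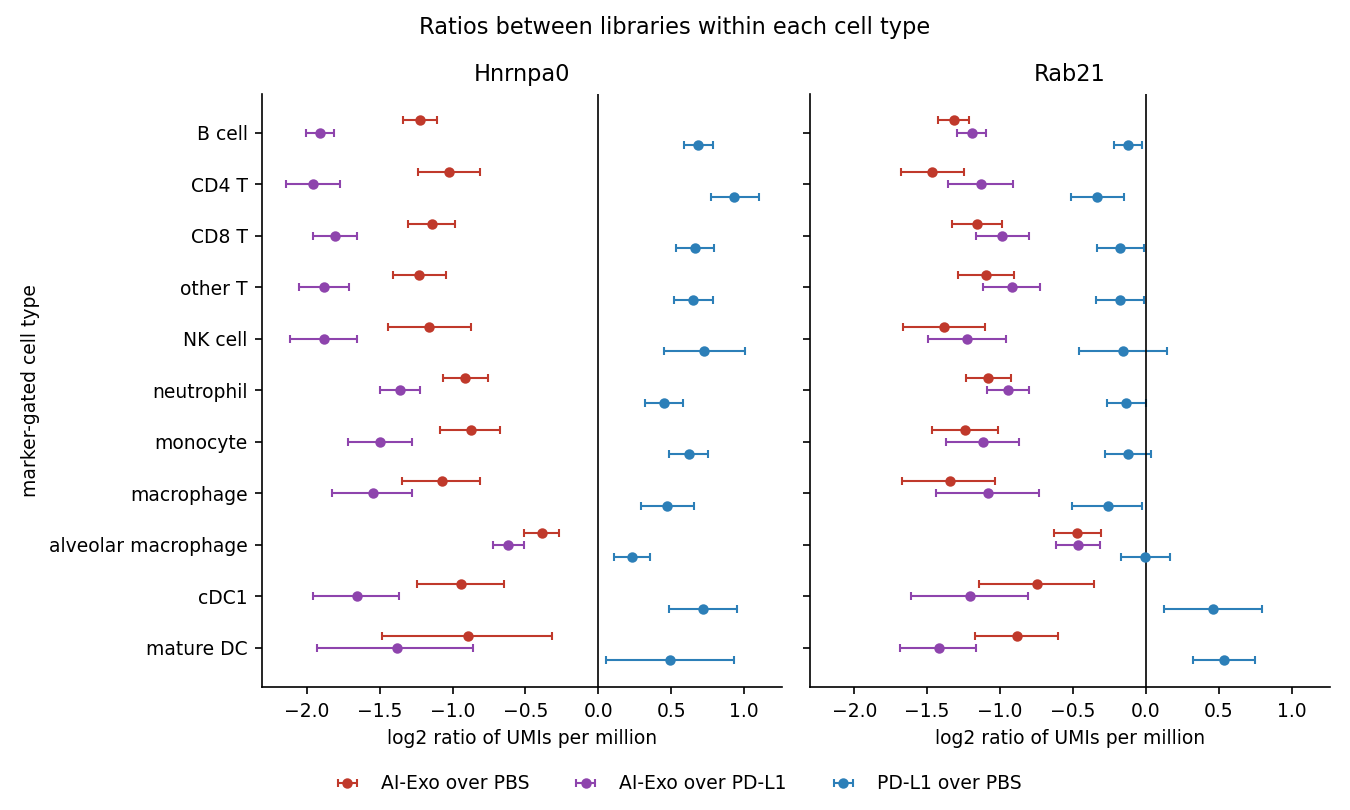
Plain log2 ratios of the levels (horizontal axis) in each cell type (vertical axis) for AI-Exo over PBS, AI-Exo over PD-L1 and PD-L1 over PBS, Hnrnpa0 on the left and Rab21 on the right; bars are 95% exact intervals. Points of both AI-Exo comparisons lie left of 0 in 11 of 11 types, and PD-L1 over PBS lies right of 0 in 11 types for Hnrnpa0 and in 2 for Rab21.

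Set among all genes tested over all cells, Hnrnpa0 had the 54th lowest ratio of 6506 in AI-Exo over PBS, the 13th lowest of 6503 in AI-Exo over PD-L1 and the 44th highest of 6547 in PD-L1 over PBS. Rab21 had the 58th lowest ratio in AI-Exo over PBS and the 57th lowest in AI-Exo over PD-L1. Ordered by the ratio nearest to 0 among the 11 types, the genes lower in AI-Exo than in PBS were C1galt1, Rab21, Hist3h2a, Hnrnpa0 and Ccnd3. C1galt1, the enzyme that builds core 1 O-glycans, had 35.2 CPM in AI-Exo and 63.6 in PBS. Hist3h2a, a histone H2A gene, had 32.4 in AI-Exo and 103 in PBS, and Ccnd3, cyclin D3, had 211 in AI-Exo and 315 in PBS. Levels and ranks alike are given here over all cells, whose makeup differed between libraries. The Hist3h2a log2 ratio in AI-Exo over PBS was -1.42 over all cells, with a median of -0.73 over the 11 types. By the same order the genes lower in AI-Exo than in PD-L1 were Hspa1b, Hnrnpa0, Rab21, AY036118 and Csnk2a2. Those higher in PD-L1 than in PBS were Ifi27l2a, Rnf213, Hnrnpa0, Brd1 and Irf9, where Irf9 is the DNA-binding part of the interferon-activated complex ISGF3. Irf9 had 51.7 CPM in PD-L1 and 33.4 in PBS.

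**Figure D3:**
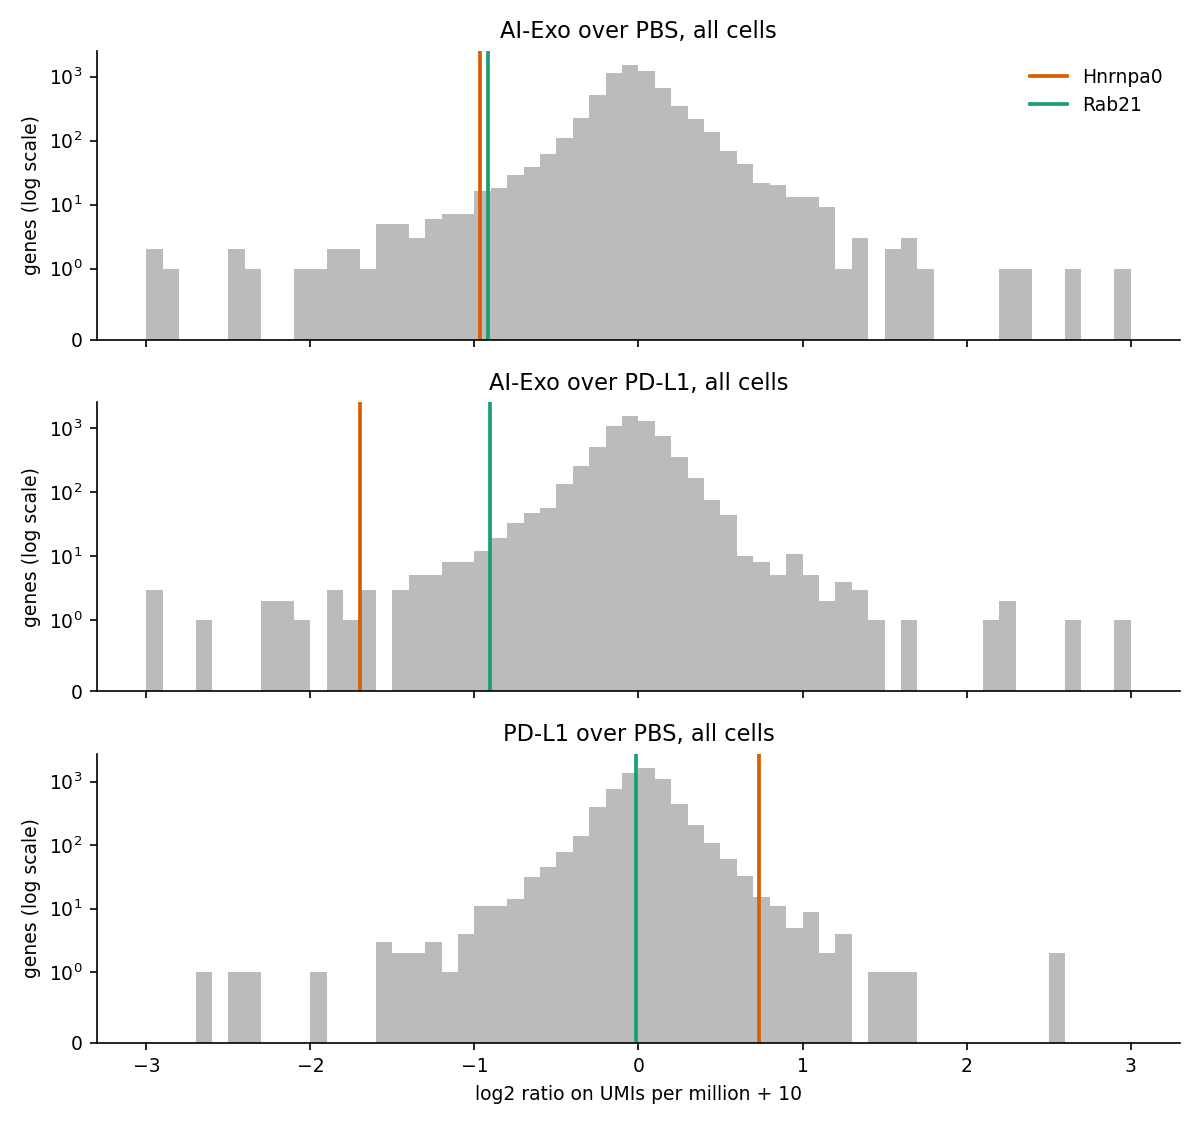
Number of genes (vertical axis, log scale) by log2 ratio on CPM + 10 over all cells (horizontal axis), with the 2 members as lines; ratios beyond 3 in size are counted in the end bars. Hnrnpa0 stands at -0.97, -1.70 and 0.73 in the 3 panels from top to bottom, and Rab21 at -0.92, -0.90 and -0.02.

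The genes most like each member were named by Pearson r of log2 levels over 33 points, 11 cell types in 3 libraries, after the mean of each cell type was subtracted. These points share 3 libraries and their depths, so r is a description with no p. For Hnrnpa0 the nearest of 6150 genes were Larp1 (r 0.95), Mbd2 (0.91), C1galt1 (0.88), Rab21 (0.87) and Purb (0.86). Larp1, a binder of 5′ terminal oligopyrimidine mRNAs, had 66.4 CPM in AI-Exo, 115 in PD-L1 and 94.0 in PBS. Purb, a binder of purine-rich single strands, had 75.2 in AI-Exo, 124 in PD-L1 and 78.5 in PBS. For Rab21 they were C1galt1 (0.93), Rb1 (0.88), Hnrnpa0 (0.87), Hspa1b (0.87) and Cyhr1 (0.87). Rb1, the retinoblastoma protein gene, had 64.7 in AI-Exo, 91.1 in PD-L1 and 83.7 in PBS. Like Hnrnpa0, Purb from its list and Hspa1b from the Rab21 list have 1 exon. The other genes on these lists have more: C1galt1 4, Cyhr1 5, Mbd2 7, Larp1 19 and Rb1 27, beside 7 in Rab21.

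On levels as they stood, without subtraction, the members were less alike (r 0.45 over the same 33 points). Hnrnpa0 was then nearest to Larp1 (0.84), the unnamed transcript 2610307P16Rik (0.79) and Purb (0.76). Rab21 was nearest to Atxn7 (0.81), Birc2 (0.80), which encodes the ubiquitin ligase cIAP1, and Cep350 (0.77). Birc2 had 73.9 CPM in AI-Exo, 88.0 in PD-L1 and 79.7 in PBS.

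Of the other 24 hnRNP genes, 24 were tested and 0 passed 1.5-fold over all cells in any of the 3 comparisons. Over all genes tested, 2.34% were lower in AI-Exo over PBS, 2.46% lower in AI-Exo over PD-L1 and 1.36% higher in PD-L1 over PBS, so a count of 0 among lists of this size or smaller is near the background. Their median log2 ratio was -0.10 in AI-Exo over PBS, -0.16 in AI-Exo over PD-L1 and 0.05 in PD-L1 over PBS, beside medians over all genes tested of -0.03, -0.03 and 0.02 for the same comparisons. Hnrnpa1, the family's best known splicing repressor, had 262 CPM in AI-Exo, 337 in PD-L1 and 308 in PBS. Hnrnpk, which lies near Hnrnpa0 on the chromosome, had 276 in AI-Exo, 307 in PD-L1 and 311 in PBS. The widest hnRNP ratio was that of Hnrnpab in AI-Exo over PD-L1, at -0.45.

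Of 10 genes for AU-rich element binding and the p38 to MK2 branch, 10 were tested and 0 passed 1.5-fold in any comparison over all cells. Median log2 ratios of the list were -0.13 in AI-Exo over PBS, -0.09 in AI-Exo over PD-L1 and -0.04 in PD-L1 over PBS. Tia1, which represses translation through AU-rich elements, was the lowest in AI-Exo over PBS at -0.44, with 44.5 CPM in AI-Exo and 64.0 in PBS. By cell type Tia1 was lower past 1.5-fold in 4 types in AI-Exo over PBS and in 2 in AI-Exo over PD-L1. Over all gene and cell type pairs, 3.56% and 3.5% were called lower in these comparisons. Of 5 transcripts reported to be bound by the protein (Tnf, Ptgs2, Cxcl2, Gadd45a, Cdkn1b), 0 passed over all cells, with medians of -0.02, -0.08 and 0.05 for the same comparisons. Ptgs2, encoding cyclooxygenase 2, had 218 CPM in AI-Exo, 230.4 in PD-L1 and 173 in PBS over all cells. The cell types ran against these values: Ptgs2 in PD-L1 over PBS was higher past 1.5-fold in 0 types and lower in 4, and in AI-Exo over PD-L1 it was higher in 5 and lower in 0. In AI-Exo over PBS it was higher in 4 types and lower in 0. Cxcl2, a neutrophil-attracting chemokine, was likewise higher in 5 types and lower in 0 in AI-Exo over PD-L1, against a log2 ratio of -0.21 over all cells. Tnf in PD-L1 over PBS was higher in 4 types, beside 3.78% of all gene and cell type pairs called higher, and lower in 3. No share of gene and cell type pairs was taken for genes lower in PD-L1 over PBS or higher in AI-Exo. Whether these counts by cell type stand out was not tested in any direction.

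Of 43 other Rab GTPase genes, 29 to 30 were tested and 0 passed 1.5-fold in any comparison over all cells. Among all genes tested, 2.34% were lower in AI-Exo over PBS, 2.46% lower in AI-Exo over PD-L1 and 1.36% higher in PD-L1 over PBS. A count of 0 in a list of this size is therefore near the background. The median log2 ratio of the Rab genes was -0.05 in AI-Exo over PBS, 0.01 in AI-Exo over PD-L1 and -0.06 in PD-L1 over PBS. Rab5a, the early endosome marker, had 109 CPM in each library. Rab20, a phagosome Rab, came nearest to the limit, with 98.7 in AI-Exo, 97.9 in PD-L1 and 63.6 in PBS. By cell type Rab20 was higher past 1.5-fold in 4 types in AI-Exo over PBS, and Rab8b, a Rab of export to the cell surface, in 2. No share of gene and cell type pairs was taken for this direction, so whether these counts stand out was not tested. Of 15 exchange factors, effectors and cargo of RAB21, 9 to 10 were tested and 0 passed, with medians of 0.10 in AI-Exo over PBS, 0.13 in AI-Exo over PD-L1 and -0.07 in PD-L1 over PBS. Among them the integrin gene Itgb2 had 139 CPM in AI-Exo, 115 in PD-L1 and 96.1 in PBS, and Vamp8 had 169 in AI-Exo, 145 in PD-L1 and 167 in PBS.

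**Figure D4:**
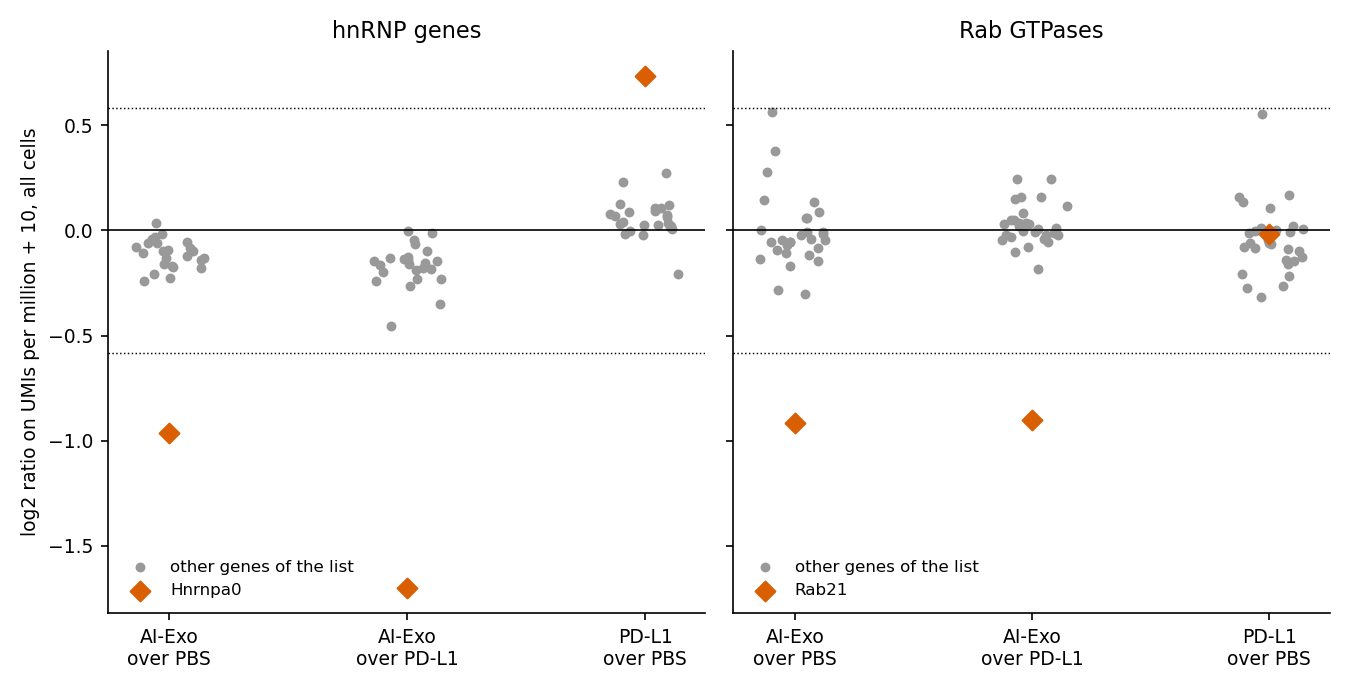
Log2 ratios over all cells on CPM + 10 (vertical axis) of hnRNP genes (left) and Rab GTPase genes (right) in the 3 comparisons; diamonds are Hnrnpa0 and Rab21, and dotted lines mark 1.5-fold. Outside the members, 0 genes pass the lines, and the highest Rab gene in AI-Exo over PBS is Rab20 at 0.56.

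Of the 15 genes of the immediate-early and dissociation stress list, 2 were lower past 1.5-fold in AI-Exo over PBS, beside 2.34% of all genes tested, and 1 in AI-Exo over PD-L1, beside 2.46%. Hspa1b had 176 CPM in AI-Exo, 412 in PD-L1 and 484 in PBS, and Hspa1a had 432 in AI-Exo, 627 in PD-L1 and 872 in PBS. Both encode inducible HSP70 and are near-identical, so their separate values are uncertain. Fos had 2566 in AI-Exo, 3258 in PD-L1 and 3612 in PBS, and did not pass 1.5-fold. The highest log2 ratios of the list were those of Egr1, at 0.13 in AI-Exo over PBS, and Ier2, at 0.028 in AI-Exo over PD-L1. The part of these genes in the members' result was not tested. The list's median log2 ratio was -0.28 in AI-Exo over PBS and -0.18 in AI-Exo over PD-L1. Neighbours within 500 kb that were tested, 4 of Hnrnpa0 and 3 of Rab21, passed 1.5-fold 0 times. Over all genes tested, 2.34% were lower in AI-Exo over PBS, 2.46% lower in AI-Exo over PD-L1 and 1.36% higher in PD-L1 over PBS. A count of 0 among so few neighbours is therefore near the background. The log2 ratios of the neighbours over all cells lay between -0.24 and 0.20.

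With all cell types pooled, AI-Exo was the lowest library for both genes at each depth of cell. Within alveolar macrophages it was not for Rab21: from 5000 to 10000 UMIs the levels were 88.4 [70.8 to 109] in AI-Exo, 85.4 [68.0 to 106] in PD-L1 and 97.3 [79.7 to 118] in PBS, and from 2000 to 5000 UMIs 96.5 [54.0 to 159] in AI-Exo, 62.7 [30.1 to 115] in PD-L1 and 93.9 [58.1 to 144] in PBS. From 500 to 2000 UMIs each library held at most 3 Rab21 UMIs in these cells. In cells of 500 to 2000 UMIs, Hnrnpa0 had 92.4 CPM [77.7 to 109] in AI-Exo, 178.5 [159.2 to 199.5] in PD-L1 and 148 [130.4 to 167] in PBS. In cells of 10000 UMIs or more it had 95.5 in AI-Exo, 377 in PD-L1 and 199.5 in PBS. With types pooled, the AI-Exo level was thus nearly flat over depth, while that of PD-L1 was higher in deeper cells. The makeup by cell type was not held fixed over depth. In neutrophils alone AI-Exo had 45.1 [37.3 to 54.1] from 2000 to 5000 UMIs and 72.7 [65.5 to 80.4] from 10000 UMIs. In B cells alone it had 104 [60.4 to 166] from 500 to 2000 UMIs and 78.0 [67.5 to 89.7] from 10000 UMIs. With types pooled, Rab21 had 83.1 in AI-Exo, 174.5 in PD-L1 and 209 in PBS in cells of 500 to 2000 UMIs. In cells of 10000 UMIs or more it had 70.0 in AI-Exo, 138 in PD-L1 and 137 in PBS. In B cells alone, 1.48% of AI-Exo, 17.3% of PD-L1 and 7.20% of PBS cells had 3 or more Hnrnpa0 UMIs, and 2.52% of AI-Exo, 12.3% of PD-L1 and 12.0% of PBS cells had 3 or more of Rab21. The most Hnrnpa0 UMIs in 1 cell were 115, in a PD-L1 cell gated as a neutrophil.

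AI-Exo was also the lowest library outside cells. In barcodes of at most 100 UMIs, which hold mostly free RNA, Hnrnpa0 had 143 CPM [132 to 156] in AI-Exo, 231 [216 to 248] in PD-L1 and 183 [169 to 198] in PBS. Rab21 had 76.8 [68.3 to 86.0] in AI-Exo, 132 [121 to 145] in PD-L1 and 116 [105 to 128] in PBS. In barcodes of at most 10 UMIs Hnrnpa0 had 93.3 in AI-Exo, 254 in PD-L1 and 170.2 in PBS, and Rab21 74.1 in AI-Exo, 145.0 in PD-L1 and 149 in PBS. No cell type that should lack either gene was known to serve as a background. The most that free RNA could give a compared cell type was estimated from markers of other types. The largest estimate was 4.68% of UMIs, in PBS macrophages, or 8.55 Hnrnpa0 and 5.43 Rab21 CPM. Each estimate was set by a single marker, carried no counting interval and was 0% in some types, such as mature dendritic cells. It is therefore no firm limit.

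**Figure D5:**
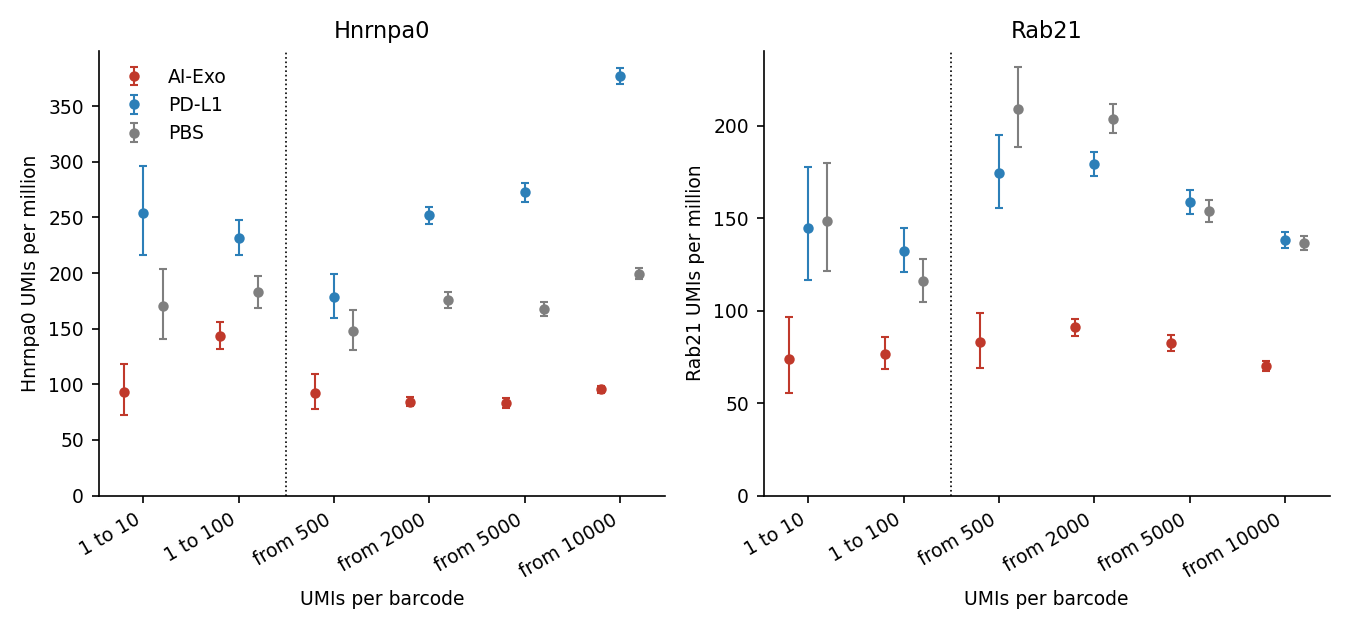
Levels in CPM (vertical axis) of Hnrnpa0 (left) and Rab21 (right) by UMIs per barcode (horizontal axis), with barcodes outside cells left of the dotted line and cells right of it; bars are 95% Poisson intervals. Each class from 500 UMIs runs up to the start of the next; AI-Exo is lowest throughout, from 93.3 at most 10 UMIs to 95.5 from 10000 UMIs for Hnrnpa0.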

How the data were processed

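The authors deposited 1 matrix per library, in raw UMI counts for all barcodes, without normalization. Per the file headers Cell Ranger 7.1.0 wrote them, while the submitters' processing notes list 3.0.2. No source used here names the genome build, annotation or intron setting. Cells were gated by markers (at least 3 detected, at least 1 more than any other list), their UMIs summed, and levels given as CPM with exact Poisson intervals; shares have Clopper-Pearson intervals and ratios exact conditional binomial ones. Scripts used Python 3.11.15, scipy 1.17.1 and scanpy 1.11.5 and were tested on simulated data. Scrublet's automatic threshold marked 1 cell of all libraries, so doublets stayed in, and a score of 0.15 served as an alternative. Named genes are the members, the 5 most like each and the 5 most alike over cell types per comparison and direction, the highest and lowest gene of each list, and neighbours within 500 kb; Hnrnpa1, Rab5a, Rab8b, Vamp8, Hspa1a and Fos were added after their values were seen. Members and lists were chosen with earlier results of these data known.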

Additional observations from a re-analysis of the deposited data

Results flagged for a closer look

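In the PD-L1 over PBS comparison, Rab21 pointed in opposite directions in different cell types, each with a counting interval on its own side of 0. The log2 ratio on CPM plus 10 was 0.42 in cDC1 and 0.53 in mature dendritic cells. It was -0.12 in B cells, -0.32 in CD4 T cells, -0.17 in CD8 T cells, -0.24 in macrophages and -0.17 in other T cells. None of these passed 1.5-fold, cDC1 and mature dendritic cells held at most 121 cells a library, and the difference between cell types was not tested.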

How the results depend on the processing

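All 11 alternatives for each ratio over all cells were run. No ratio past 1.5-fold changed sign, but Hnrnpa0 in PD-L1 over PBS was under 1.5-fold with thinned cells, and the uncalled Rab21 ratio in PD-L1 over PBS (-0.015) changed sign with equal weights. Ratios marked as moved from the main value, judged by the counting interval, follow. Their order is AI-Exo over PBS, AI-Exo over PD-L1 and PD-L1 over PBS. For Hnrnpa0 the mean of cell types with equal weight gave -0.91, -1.51 and 0.60. Gated cells of the compared types only gave -0.78, -1.39 and 0.60. Subtracting the estimate of the most that free RNA could give left -0.79, -1.40 and 0.61. Cells thinned to 1000 UMIs gave -1.01, -1.53 and 0.52. A pseudocount of 1 gave -1.03 and -1.80 for the AI-Exo comparisons. For Rab21, equal weights gave -1.02, -1.07 and 0.043, and the pseudocount of 1 gave -0.99 and -0.98 for the AI-Exo comparisons. Hnrnpa0 at -1.01, -1.03 and -1.80 and Rab21 at -1.02, -0.99 and -0.98 lay inside the intervals of the plain ratios. The main AI-Exo ratios of both genes, taken on CPM plus 10, themselves lay outside those plain intervals. In barcodes of at most 10 UMIs, against at most 100, Hnrnpa0 gave -0.80, -1.35 and 0.55, and Rab21 -0.92 for AI-Exo over PBS and -0.033 for PD-L1 over PBS. Over all cells, 46 genes were lower past 2-fold in AI-Exo over PBS (152 at 1.5-fold), 45 lower in AI-Exo over PD-L1 (160) and 20 higher in PD-L1 over PBS (89); with a pseudocount of 1, 156 passed in PD-L1 over PBS. Genes past the size in each type numbered 0 at 2-fold in AI-Exo over PD-L1 and in PD-L1 over PBS, 2 in AI-Exo over PD-L1 with a pseudocount of 1 or with no filter on low genes, and 1 in AI-Exo over PBS with no filter. Per cell type, 65 of 66 ratios were not marked as moved at a pseudocount of 1. The same held for 65 of 66 without cells at a Scrublet score of 0.15 or more. The stricter gate left at least 50 cells in every library in 3 types, and 11 of 18 ratios were marked as moved. The causes were not tested. No paired analysis was possible because the results come from no test and each group has 1 library.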
